A study of Mus musculus with 15 samples.

Results

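The core autophagy machinery was followed here as 42 genes, chosen by gene name as the conserved proteins that build the autophagosome, with no threshold on a measured value. All 42 were found by gene symbol among the 20910 genes of the table from cultured cells and among the 25038 genes of the table from eye tissue, and all 42 passed the filter on low counts in every comparison. The study asked what loss of *Prom1*, which encodes the membrane glycoprotein prominin-1, changes in the mouse retinal pigment epithelium (RPE), the pigmented cell layer that supports the photoreceptors. Polyadenylated RNA was sequenced from 9 libraries of cultured mouse RPE cells (mRPE) and from 6 libraries of dissected RPE with the underlying choroid.

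The mRPE line was made from pooled primary cells of C57/BL6J mice and immortalized with the viral oncogenes E6 and E7, which all 9 culture libraries share. The wild-type (WT) line had 4 libraries. The *Prom1*-KO cells had received Cas9 from a lentivirus, puromycin selection and a synthetic guide to exon 5 of *Prom1*, and were sequenced as line 22 (KO22, 3 libraries) and line 26 (KO26, 2 libraries), so each knockout line stands for 1 edited line and differences between lines cannot be told apart from differences between clones. The study's methods mention Cas9-expressing cells given a scrambled guide as controls for the genomic check of the edit, but whether the sequenced WT line carried Cas9 or such a guide was not given. In each of the 3 groups, library 1 carried the run prefix 8995 and the other libraries the prefix 9262, which is treated as the batch. The study left both KO26 libraries out of its own comparison. The tissue came from 3 WT libraries and 3 libraries of mice in which floxed *Prom1* was deleted by a Cre recombinase under the RPE65 promoter after tamoxifen gavage (KO). The age of these mice, and whether the WT mice carried the floxed allele, the Cre or tamoxifen, were not given, so the effect of Cre or tamoxifen cannot be told apart from that of the deletion. The study calls the culture libraries biological replicates, but nothing said whether libraries of one group came from separate cultures or animals, so p-values measure the spread between these libraries, which may be technical.

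Macroautophagy encloses cytoplasm, proteins or organelles in a double membrane, the autophagosome, which then fuses with the lysosome. A kinase complex built around ULK1 starts the process, a class III PI3-kinase marks the forming membrane with the lipid PI3P, and lipid transfer proteins expand it. Ubiquitin-like conjugation fixes LC3 and GABARAP proteins to the membrane, where cargo receptors bind them. The RPE also uses part of this machinery to digest the photoreceptor tips it takes up each day.

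Depth was 8076188 to 27537863 counts per mRPE library and 48154444 to 61766179 per tissue library, but mitochondrial genes held 64.9 to 84.2% of the tissue counts, most in KO library 3. The row for *Prom1* was not analysed here in mRPE, so the edit could not be checked in these counts. In tissue *Prom1* was at 48.7, 49.6 and 53.3 CPM (counts scaled to the size of the library) in WT and at 49.9, 48.1 and 35.5 CPM in KO, a log2 fold change of -0.18 ± 0.16 (SE) with an adjusted p of 0.824, so a lower total was not detectable. The RPE label of the culture could be checked with few markers and remains uncertain. Of 13 RPE marker genes only *Best1*, *Mitf* and *Pmel* could be read in mRPE, the others (among them *Rpe65*, *Rlbp1* and *Lrat*) were not analysed here, and the 3 summed to 8.18 to 12.8 CPM in WT, 15.5 to 38.7 CPM in KO22 and 5.38 to 9.14 CPM in KO26. Fibroblast markers (4 of 5 read) summed to 10932 to 13917 CPM in WT, 4104 to 5869 CPM in KO22 and 15096 to 18040 CPM in KO26, and endothelial markers (5 of 6 read) to 153 to 236, 3.49 to 5.40 and 56.7 to 74.1 CPM. The endothelial sum was mostly *Kdr*, at a mean of 177 CPM in WT, 2.21 in KO22 and 63.8 in KO26. *Tek* was at 1.07 CPM in WT, with *Pecam1*, *Plvap* and *Vwf* below it. Within the fibroblast list *Dcn* went against the sums, at means of 828, 1192 and 615 CPM. *Pdgfra* was lower in KO26 (780 CPM) than in WT (1419 CPM). These sums moved with the groups compared below, not every gene moved with its sum, and their part in the autophagy results was not tested.

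In WT cells the machinery covered a wide range of levels. Levels were scaled per kilobase of 1 annotated main transcript per gene, and which transcript was expressed was not measured. For *Map1lc3b* that transcript has 0.889 kilobases, against 7617 bases over all its exons, so its rank and family share depend on this choice. On this scale *Vmp1*, an ER scramblase that helps the membrane form, was highest at 177 CPM. *Map1lc3b* (LC3B) followed at 141 CPM, *Sqstm1* (the cargo receptor p62) at 62.8 CPM and *Rb1cc1* (FIP200, the scaffold of the ULK1 complex) at 50.1 CPM. The lowest were the lipid scramblase gene *Atg9a* at 1.96 CPM, the protease gene *Atg4c* at 1.32 CPM and the receptor gene *Optn* at 1.31 CPM. Between the 4 WT libraries the coefficient of variation ran from 3.53% for *Rb1cc1* to 35.3% for *Map1lc3a*. In WT tissue *Map1lc3b* led at 34.6 CPM per kilobase, ahead of *Tax1bp1*, then *Gabarap* at 12.1 and *Rb1cc1* at 9.34 CPM. Both tables were scaled separately and mitochondrial RNA took most of the tissue counts, so no test was made between them. In mRPE only uniquely placed reads were counted, the tissue counting was not given, and members of the LC3 and GABARAP family have close copies, so their levels against other genes are uncertain.

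**Figure D1:**
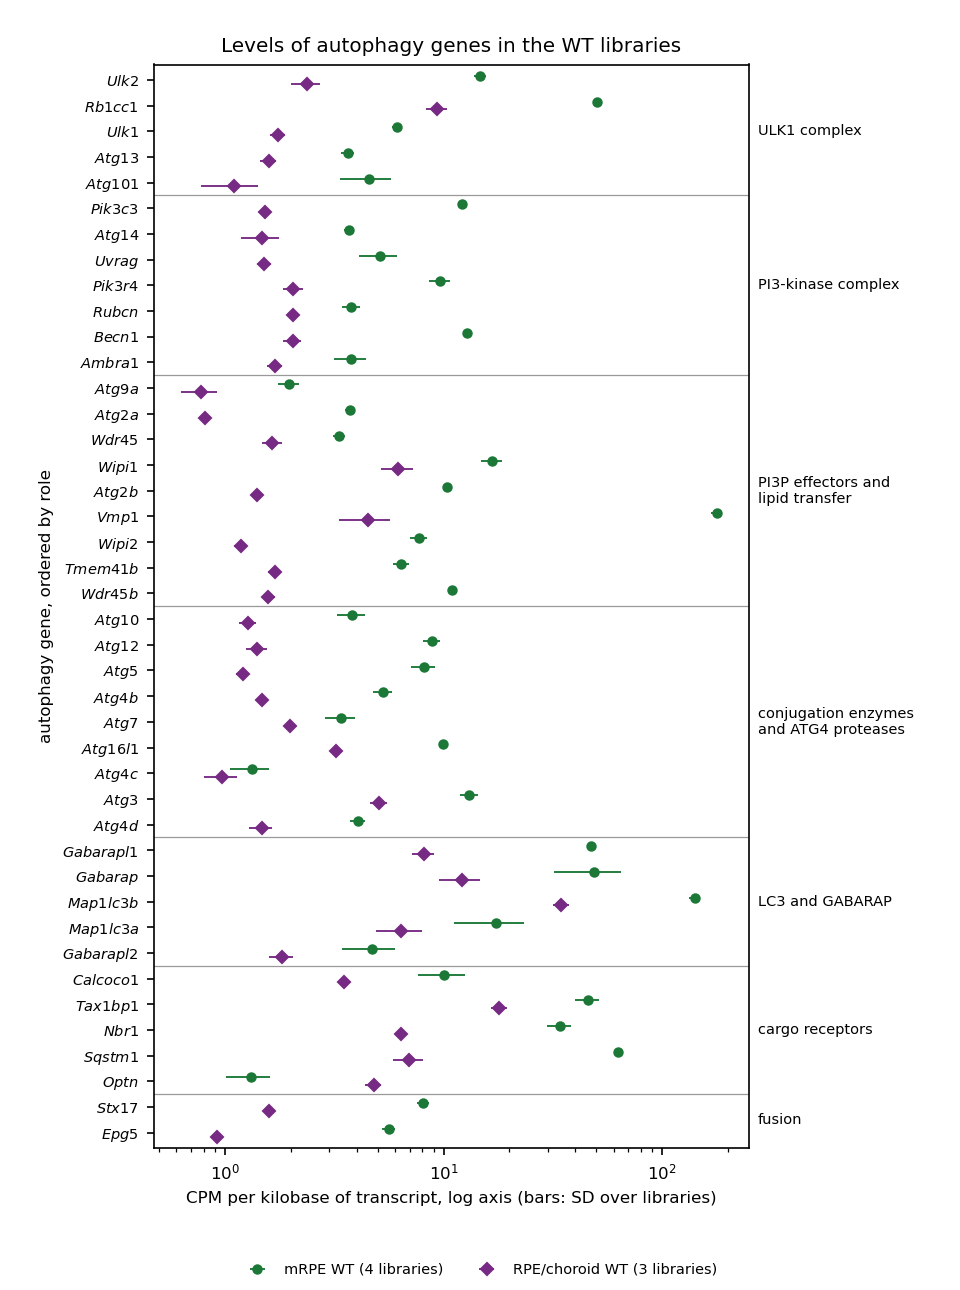
Level of each of the 42 genes in the WT libraries, as CPM per kilobase of transcript on a log axis, for mRPE (circles, mean of 4 libraries) and RPE/choroid (diamonds, mean of 3), with bars for the SD. *Vmp1* at 177 and *Map1lc3b* at 141 lead in mRPE, while *Map1lc3b* at 34.6 leads in tissue.

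In KO22 against WT, most of the machinery that moved was lower. With edgeR's quasi-likelihood test and a Benjamini-Hochberg adjusted p under 0.05 over all genes, 19 of the 42 genes fell, 3 rose and 20 were not called. The background was large, since 26.1% of the 20455 genes tested fell and 26.9% rose. The median log2 fold change was -0.27 over the 42 genes and -0.03 over all genes. By role it ran from -0.72 for the 5 genes of the ULK1 complex and -0.63 for the 5 cargo receptors to -0.39 for the 5 LC3 and GABARAP genes, -0.11 for the 9 genes of membrane supply and -0.01 for the 9 conjugation genes. A stricter call that also asks for a log2 change beyond 1.2 left *Ulk2* and *Calcoco1* lower and *Optn* higher, against 13.8% of all genes lower and 11.4% higher. The libraries of both groups did not overlap for 18 genes that were lower and 5 that were higher in KO22, against 25.3% and 24.8% of all genes. In KO22 the median change of a chromosome's genes ran from -0.54 on chromosome 10 to 0.60 on chromosome 8; with each gene taken less the median of its own chromosome, the 42 genes had a median of -0.24. On that scale the order of the roles changed, with -0.61 for the ULK1 complex, -0.38 for the LC3 and GABARAP genes, -0.21 for the cargo receptors, -0.08 for membrane supply and 0.02 for the conjugation genes. Among single genes *Tax1bp1* went from -0.66 to -0.21, *Gabarapl1* from -0.83 to -0.38, *Atg2a* from -0.83 to -0.41, *Atg4d* from 0.45 to 0.17, *Stx17* from -0.45 to -0.71 and *Map1lc3b* from -0.39 to -0.99. Within the batches, 21 of the 22 called genes had the sign of the pooled value in both, *Map1lc3b* being the exception. These genes were called from the same libraries, so their signs are no separate check. Leaving out 1 library at a time moved the lower count between 14 and 23 and the higher count between 2 and 4.

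**Figure D2:**
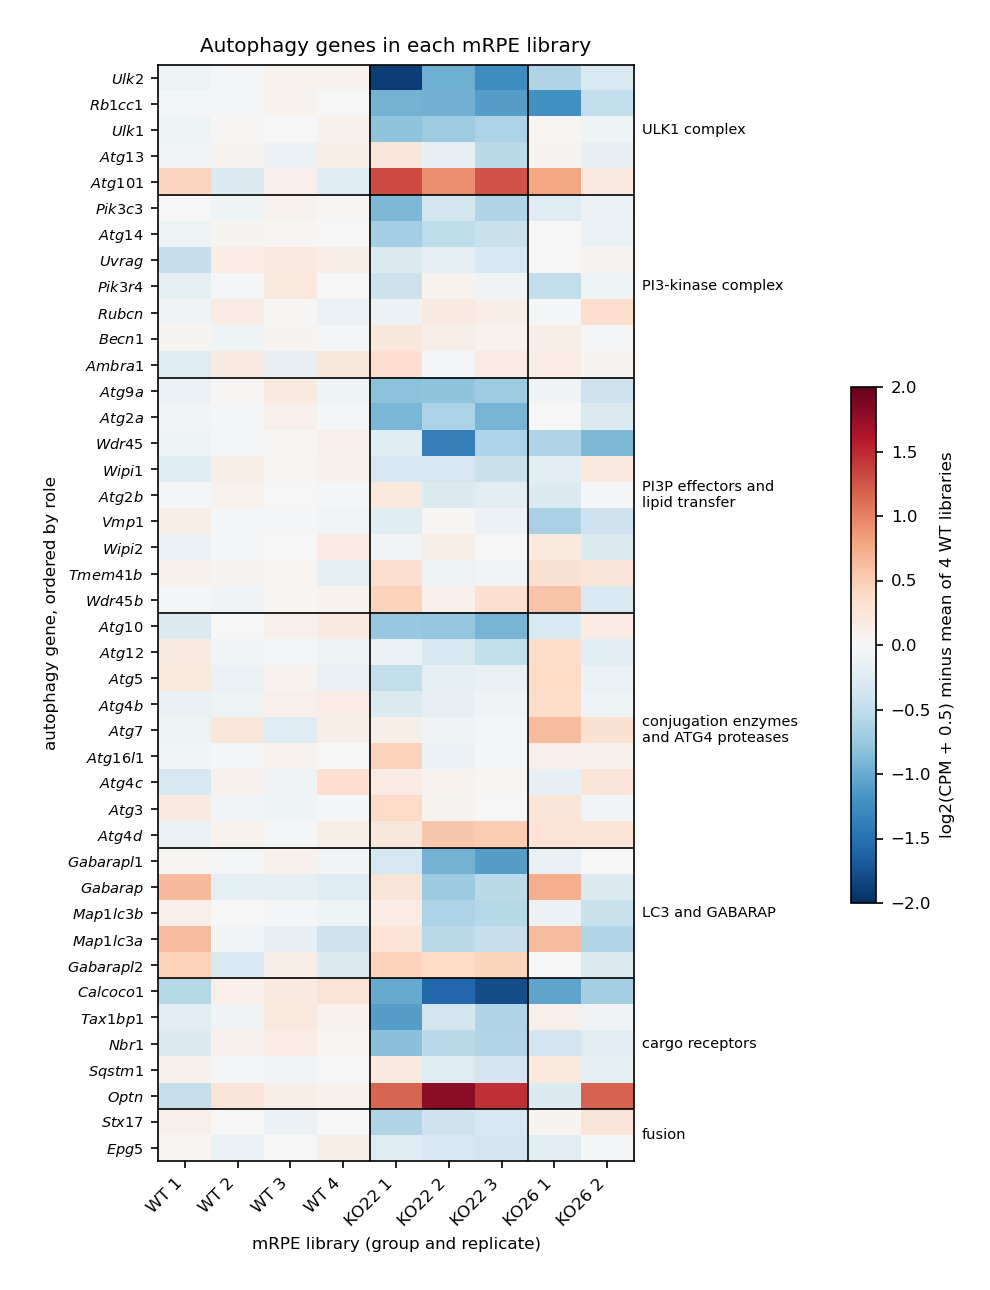
Heatmap of the 42 genes (rows, by role) in the 9 mRPE libraries (columns), coloured by log2(CPM + 0.5) minus the mean of the 4 WT libraries. *Ulk2*, *Rb1cc1*, *Ulk1* and *Calcoco1* are below the WT mean in all 3 KO22 libraries, and *Atg101* and *Optn* are above it.

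In the ULK1 initiation complex 3 of 5 genes fell and 1 rose in KO22, against 26.1% and 26.9% of all genes. It held the smallest adjusted p of the 42, for *Rb1cc1*. *Ulk1* (chromosome 5, 110931496 to 110957995, GRCm39, minus strand), one of the paired kinases that start autophagy, was at 34.7, 37.8, 36.8 and 39.5 CPM in WT, at 21.0, 22.4 and 24.1 CPM in KO22 and at 38.1 and 34.9 CPM in KO26. Its KO22 libraries all lay below every other one, and its log2 fold change in KO22 was -0.72 ± 0.11 (adjusted p 0.00048). The other kinase gene, *Ulk2* (chromosome 11, 61665841 to 61746170, minus strand), was at 90.6, 95.4, 103 and 103 CPM in WT, at 26.0, 49.4 and 40.4 CPM in KO22 and at 63.9 and 79.0 CPM in KO26. It fell by 1.34 ± 0.15 on the log2 scale in KO22 (adjusted p 7.02e-05), with KO22 library 1 the lowest, while both KO26 libraries lay between KO22 and WT without passing the test (-0.37 ± 0.17, adjusted p 0.254). Within batch 8995 the log2 ratio was -1.78 and within batch 9262 it was -1.16. Without WT library 1 the fitted change was -1.17 and without KO22 library 1 it was -1.14, both short of the limit of 1.2. Both of these fits rest on batch 9262 alone.

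*Rb1cc1* (chromosome 1, 6276421 to 6377444, plus strand) encodes the scaffold that the kinases bind. It was at 374, 374, 403 and 382 CPM in WT, at 199, 196 and 179 CPM in KO22 and at 166 and 271 CPM in KO26, so that both knockout lines lay below all WT libraries. In KO22 it fell by 1.01 ± 0.11 on the log2 scale, with an adjusted p of 5.51e-05. *Atg101* (chromosome 15, 101181252 to 101188834, plus strand), which holds ATG13 in the complex, went the other way. It was at 8.42, 4.94, 6.58 and 5.02 CPM in WT and at 15.8, 12.0 and 15.3 CPM in KO22, without overlap, and rose by a log2 value of 1.19 ± 0.18 (adjusted p 0.000517). That lies just inside the limit of 1.2, which it passed without WT library 1 (1.30), WT library 3 (1.26), KO22 library 1 (1.32) or KO22 library 2 (1.21). *Atg13*, at 20.7 to 24.3 CPM in WT and 15.5 to 26.7 CPM in KO22, overlapped and was not called (-0.16 ± 0.17, adjusted p 0.461); without the batch 8995 library of either group it was called lower, at -0.36 without WT library 1 and -0.34 without KO22 library 1. Of the exon bases of *Atg13*, 33.1% overlap genes of the opposite strand.

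The promoters of the genes that moved most in this complex are given with those of *Optn*, *Gabarap* and *Sqstm1*, each as the 250 bases before the start of the main GENCODE vM39 transcript in GRCm39, 5′ to 3′ on the strand of the gene. Motifs that were searched on both strands are in capitals.
Ulk1, chr5:110957985-110958234, minus strand: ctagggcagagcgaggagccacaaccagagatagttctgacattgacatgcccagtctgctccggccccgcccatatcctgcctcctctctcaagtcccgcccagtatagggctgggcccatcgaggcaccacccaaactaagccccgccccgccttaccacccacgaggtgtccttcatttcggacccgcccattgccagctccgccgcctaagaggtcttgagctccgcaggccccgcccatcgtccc
Ulk2, chr11:61746171-61746420, minus strand: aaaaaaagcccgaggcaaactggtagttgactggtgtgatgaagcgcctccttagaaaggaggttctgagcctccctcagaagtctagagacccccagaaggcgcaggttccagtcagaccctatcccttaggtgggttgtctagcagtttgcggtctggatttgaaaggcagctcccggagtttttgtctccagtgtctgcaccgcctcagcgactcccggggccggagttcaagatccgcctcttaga
Rb1cc1, chr1:6284580-6284829, plus strand: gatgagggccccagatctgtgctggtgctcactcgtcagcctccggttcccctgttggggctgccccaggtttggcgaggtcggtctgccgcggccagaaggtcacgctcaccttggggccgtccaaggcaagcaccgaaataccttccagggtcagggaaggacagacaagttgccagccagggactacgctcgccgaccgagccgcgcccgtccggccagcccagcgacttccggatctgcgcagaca
Atg101, chr15:101181808-101182057, plus strand: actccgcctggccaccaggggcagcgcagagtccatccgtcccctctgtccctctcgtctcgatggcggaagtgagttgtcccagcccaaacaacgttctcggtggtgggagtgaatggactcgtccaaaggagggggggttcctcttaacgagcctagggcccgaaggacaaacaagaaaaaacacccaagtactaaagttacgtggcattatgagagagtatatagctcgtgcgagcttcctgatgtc
Optn, chr2:5068946-5069195, minus strand: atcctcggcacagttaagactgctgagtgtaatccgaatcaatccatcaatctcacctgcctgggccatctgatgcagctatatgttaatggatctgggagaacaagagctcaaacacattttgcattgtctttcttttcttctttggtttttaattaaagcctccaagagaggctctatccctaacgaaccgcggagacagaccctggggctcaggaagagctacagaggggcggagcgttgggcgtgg
Gabarap, chr11:69881638-69881887, plus strand: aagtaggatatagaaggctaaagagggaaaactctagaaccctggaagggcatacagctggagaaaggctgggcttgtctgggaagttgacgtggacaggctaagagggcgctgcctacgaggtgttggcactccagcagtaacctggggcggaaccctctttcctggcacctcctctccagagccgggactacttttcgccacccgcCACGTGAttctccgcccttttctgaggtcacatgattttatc
Sqstm1, chr11:50102886-50103135, minus strand: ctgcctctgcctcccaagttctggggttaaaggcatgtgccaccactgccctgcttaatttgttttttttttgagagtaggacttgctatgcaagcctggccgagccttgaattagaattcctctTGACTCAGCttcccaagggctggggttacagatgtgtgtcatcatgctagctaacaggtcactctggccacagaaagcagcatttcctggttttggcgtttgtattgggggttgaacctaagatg

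The search covered CACGTG (the E-box), TCACGTG (the E-box with the base that TFEB prefers, which always overlaps an E-box), TGACNNNGC (the antioxidant element), TGATGNAA (an ATF4-type element) and TAAACAA (a FOXO-type element). In the first 5 sequences none of these letters were found. The *Gabarap* promoter holds TCACGTG on the reverse strand, which reads CACGTGA as printed. TCACGTG was found in the promoters of *Gabarap*, *Epg5* and *Rubcn*, 3 of the 42, and in 3.65% of 16226 promoters of the same length. The plain CACGTG was found in the same 3 of the 42 and in 7.14% of all promoters. The *Sqstm1* promoter holds TGACNNNGC, the only one of the 42 to do so, against 10.4% of all promoters. TAAACAA was in the promoters of *Atg9a* and *Gabarapl1*, against 3.24% of all, and TGATGNAA was in none of the 42, against 2.34% of all. Of the printed windows, those of *Rb1cc1*, *Atg101* and *Sqstm1* lie inside the annotated gene, which begins before its main transcript. The *Ulk1* window overlaps its annotated gene in part. A match describes these letters in this window and is not a bound site.

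**Figure D3:**
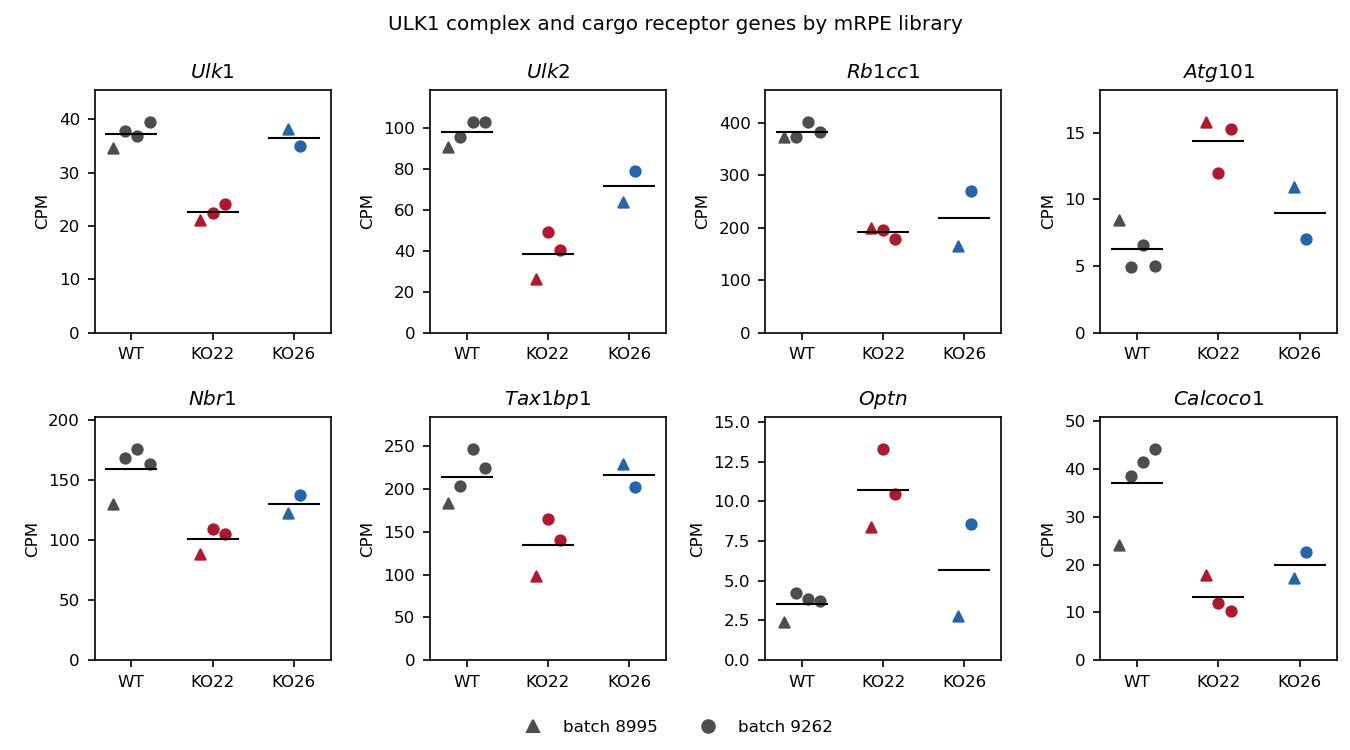
CPM of 4 ULK1 complex genes (top) and 4 cargo receptor genes (bottom) in each mRPE library, by line, with bars at the group mean, triangles for batch 8995 and circles for batch 9262; each axis starts at 0. KO22 lies below WT in 6 panels and above it for *Atg101* and *Optn*.

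Cargo receptors carry ubiquitinated or labelled cargo to LC3. Of the 5, 3 fell in KO22, 1 rose and 1 was not called, against 26.1% of all genes lower and 26.9% higher. *Nbr1*, a receptor for ubiquitinated proteins, was at 130, 168, 176 and 163 CPM in WT, at 88.1, 109 and 105 CPM in KO22 and at 123 and 137 CPM in KO26. It fell by 0.63 ± 0.10 on the log2 scale in KO22 (adjusted p 0.000547). *Tax1bp1*, another ubiquitin receptor, was at 183, 203, 247 and 225 CPM in WT, at 98.6, 165 and 140 CPM in KO22 and at 230 and 202 CPM in KO26, and fell by 0.66 ± 0.13 (adjusted p 0.00184). For both genes the KO22 libraries lay below all others.

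*Calcoco1*, a receptor for the autophagy of endoplasmic reticulum and Golgi, had the most negative change of the 42 genes. It was at 24.1, 38.7, 41.5 and 44.2 CPM in WT, at 17.7, 11.9 and 10.2 CPM in KO22 and at 17.2 and 22.6 CPM in KO26, with WT library 1 the lowest of its group. It fell by 1.47 ± 0.26 in KO22 (adjusted p 0.0013), with a log2 ratio of -0.43 within batch 8995 and of -1.86 within batch 9262. *Optn* (optineurin, a receptor in mitophagy and in the clearance of bacteria; chromosome 2, 5022703 to 5068945, minus strand) had the most positive change. It was at 2.38, 4.25, 3.83 and 3.73 CPM in WT, at 8.39, 13.3 and 10.5 CPM in KO22 and at 2.78 and 8.56 CPM in KO26. In KO22 it rose by 1.66 ± 0.18 (adjusted p 6.59e-05), and within batches the ratios were 1.62 and 1.47. *Sqstm1*, often read as a marker of autophagic flux at the protein level, was at 217, 200, 197 and 207 CPM in WT, at 235, 172 and 159 CPM in KO22 and at 237 and 181 CPM in KO26. It was not called (-0.17 ± 0.12, 95% interval -0.43 to 0.10, adjusted p 0.259). On batch 9262 alone it was called lower, whether WT library 1 (-0.29, adjusted p 0.0085) or KO22 library 1 (-0.27, adjusted p 0.0151) was left out.

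The products of the 5 LC3 and GABARAP genes are attached to the autophagosome membrane. In KO22 3 of the 5 fell and none rose, against 26.1% and 26.9% of all genes. *Gabarapl1* was at 87.1, 83.3, 91.2 and 82.7 CPM in WT, at 67.0, 44.6 and 39.6 CPM in KO22 and at 77.8 and 85.6 CPM in KO26. It fell by 0.83 ± 0.14 (adjusted p 0.00106), without overlap between KO22 and WT, although 31.0% of its exon bases overlap a gene of the opposite strand. *Gabarap* was at 129, 71.8, 72.4 and 69.0 CPM in WT, at 98.8, 49.7 and 57.3 CPM in KO22 and at 137 and 68.0 CPM in KO26. The library of batch 8995 was the highest of each group, and with the batch as a term *Gabarap* fell by 0.41 ± 0.10 in KO22 (adjusted p 0.00789), while without that term the adjusted p was 0.379.

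*Map1lc3b* was at 135, 125, 124 and 118 CPM in WT, at 138, 81.3 and 83.7 CPM in KO22 and at 115 and 92.2 CPM in KO26. Its KO22 and WT libraries overlapped, its log2 ratio was 0.04 within batch 8995 and -0.56 within batch 9262, and the fitted change of -0.39 ± 0.13 had an adjusted p of 0.0347. That call was lost without any 1 of the 5 libraries of batch 9262 in this comparison, the largest adjusted p being 0.145 without KO22 library 2. *Map1lc3a* was at 21.5, 13.1, 12.2 and 10.1 CPM in WT, at 16.7, 9.35 and 9.78 CPM in KO22 and at 21.5 and 8.91 CPM in KO26, with a change of -0.32 ± 0.15 (adjusted p 0.0925). *Gabarapl2* was at 10.8, 6.24, 8.54 and 6.32 CPM in WT, at 10.9, 10.4 and 10.8 CPM in KO22 and at 7.80 and 6.25 CPM in KO26. Its change of 0.42 ± 0.19 was not called (adjusted p 0.0908). On batch 9262 alone *Gabarapl2* was called higher, whether WT library 1 (0.60, adjusted p 0.0038) or KO22 library 1 (0.62, adjusted p 0.0025) was left out. Per kilobase, *Map1lc3b* held 54.8% ± 3.49 (SD, n = 4) of the family's summed level in WT, 56.55% ± 0.046 (SD, n = 3) in KO22 and 48.5% ± 3.345 (SD, n = 2) in KO26. *Gabarapl1* held 18.45% ± 1.93, 13.9% ± 1.125 and 19.1% ± 5.57, so its KO22 libraries lay below all WT libraries in share as well.

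The class III PI3-kinase complex and its regulators had 2 of 7 genes lower in KO22 and none higher, a lower share near the 26.1% of all genes. *Pik3c3*, the catalytic subunit VPS34, fell from 50.9 to 56.8 CPM in WT to 28.9 to 41.8 CPM in KO22, by 0.61 ± 0.13 on the log2 scale (adjusted p 0.00304). *Atg14*, which brings the kinase to the site of autophagosome formation, was at 11.8 to 13.4 CPM in WT and 7.78 to 9.23 CPM in KO22, a change of -0.56 ± 0.14 (adjusted p 0.00789). The subunit genes *Becn1* (0.13 ± 0.10, adjusted p 0.305) and *Pik3r4* (-0.12 ± 0.11, adjusted p 0.383) were not called, nor were *Uvrag*, *Ambra1* and *Rubcn*, which encodes an inhibitor of the complex. For *Becn1*, 43.8% of the exon bases overlap a gene of the opposite strand. *Uvrag* was called lower without WT library 1 (-0.43) or KO22 library 1 (-0.41).

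Of 9 genes for PI3P effectors, lipid transfer and membrane supply, 4 fell and none rose, against 26.1% and 26.9% of all genes. *Atg2a*, one of a pair of lipid transfer proteins, was at 22.7, 23.4, 25.4 and 23.2 CPM in WT, at 12.3, 15.1 and 12.2 CPM in KO22 and at 23.4 and 19.3 CPM in KO26, and fell by 0.83 ± 0.14 in KO22 (adjusted p 0.000717). Its paralog *Atg2b*, at 103 to 111 CPM in WT and 88.0 to 122 CPM in KO22, was not called (-0.11 ± 0.12, adjusted p 0.465). *Atg2b* was called lower without WT library 1 (-0.28) or KO22 library 1 (-0.26), fits that both rest on batch 9262 alone. *Atg9a* fell by 0.84 ± 0.17 (adjusted p 0.00286), from 8.03 to 10.2 CPM in WT to 4.76 to 5.20 CPM, and 25.2% of its exon bases lie in a gene of the same strand. The PI3P binding genes *Wipi1* (-0.36 ± 0.12, adjusted p 0.0319) and *Wdr45* (-0.83 ± 0.29, adjusted p 0.037) fell too, but both calls were lost without any 1 of the 5 libraries of batch 9262. *Wdr45b*, at 24.7, 24.2, 26.1 and 26.6 CPM in WT, 35.3, 27.2 and 31.7 CPM in KO22 and 37.7 and 20.5 CPM in KO26, did not overlap between KO22 and WT but was not called (0.29 ± 0.13, adjusted p 0.075). *Wipi2*, *Vmp1* and *Tmem41b* lay between -0.11 and 0.03 in KO22, with none called.

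Among 9 conjugation enzymes and ATG4 proteases, 2 fell and 1 rose, both below the shares of all genes (26.1% lower and 26.9% higher). *Atg10*, the enzyme that hands ATG12 on to ATG5, fell by 0.88 ± 0.20 (adjusted p 0.00446), from 5.60 to 7.97 CPM in WT to 3.41 to 3.89 CPM in KO22. *Atg12* itself fell by 0.33 ± 0.10 (adjusted p 0.0236), a call that was lost without WT library 2 (adjusted p 0.0527), WT library 3 (0.0639) or KO22 library 3 (0.0709). *Atg4d*, a protease that trims LC3 and GABARAP proteins, was at 22.2, 25.6, 23.7 and 26.5 CPM in WT, at 28.5, 35.6 and 35.0 CPM in KO22 and at 29.9 and 29.7 CPM in KO26. It rose by 0.45 ± 0.11 (adjusted p 0.00751; 0.0518 without KO22 library 2), and 37.1% of its exon bases overlap genes of the opposite strand. The activating enzyme *Atg7* (-0.01 ± 0.17), *Atg3*, *Atg5*, *Atg16l1*, *Atg4b* and *Atg4c* were not called. Both genes for fusion with the lysosome fell, against 26.1% of all genes. *Stx17*, the SNARE of the autophagosome, was at 50.0, 46.7, 43.0 and 46.9 CPM in WT, at 30.4, 34.9 and 37.1 CPM in KO22 and at 48.6 and 55.7 CPM in KO26, a change of -0.45 ± 0.12 (adjusted p 0.00941). The tether gene *Epg5* changed by -0.32 ± 0.11 (adjusted p 0.0282), a call that was lost without WT library 3 or 4 or KO22 library 2 or 3 (adjusted p 0.0567 to 0.0784).

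In KO26 against the same 4 WT libraries, 1 of the 42 genes passed the test. With edgeR's quasi-likelihood test *Rb1cc1* fell by 0.79 ± 0.18 on the log2 scale (adjusted p 0.0376), and none rose, against 1.13% of 20737 genes tested that fell and 2.36% that rose. Past both limits there were 0 of the 42, against 0.719% of all genes lower and 1.21% higher. At an unadjusted p under 0.05 there were 5 of the 42 lower and 3 higher, against 1871 lower and 2292 higher of the 20737 genes. DESeq2's own test called 2 lower and 0 higher, against 3.27% of all genes lower and 4.99% higher. The median over the 42 genes was -0.01, and 0.03 over all genes. The *Rb1cc1* ratio was -1.17 within batch 8995 and -0.51 within batch 9262. Its call was lost when KO26 library 1 (-0.50, adjusted p 0.241), any 1 of the 4 WT libraries (adjusted p 0.0983 to 0.106) or KO22 library 2, which shares the estimate of the spread, was left out (adjusted p 0.0709). Without KO26 library 2 the change was -1.22 (adjusted p 0.02). With 1 KO26 library left, that library is assumed to vary like the other groups.

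The other genes of KO26 that came closest were not called. *Vmp1*, at 582 to 653 CPM in WT and 385 and 449 CPM in KO26, had a value of -0.52 ± 0.14 (adjusted p 0.0777). *Calcoco1* had -0.86 ± 0.29 (adjusted p 0.136) and *Optn* 0.74 ± 0.27 (adjusted p 0.167), the latter with KO26 library 1 at 2.78 CPM inside the WT range and library 2 at 8.56 CPM above it. The libraries of 7 genes were lower and of 4 higher without overlap, against 12.8% and 11.9% of all genes. Leaving out KO22 library 1, which enters this fit only through the spread and the batch, called *Ulk2* (-0.41), *Map1lc3b* (-0.33), *Calcoco1* (-0.70) and *Vmp1* (-0.53) lower and *Optn* (0.77) higher. Calls rose over all genes too in that fit, to 6.99% lower and 10.5% higher.

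**Figure D4:**
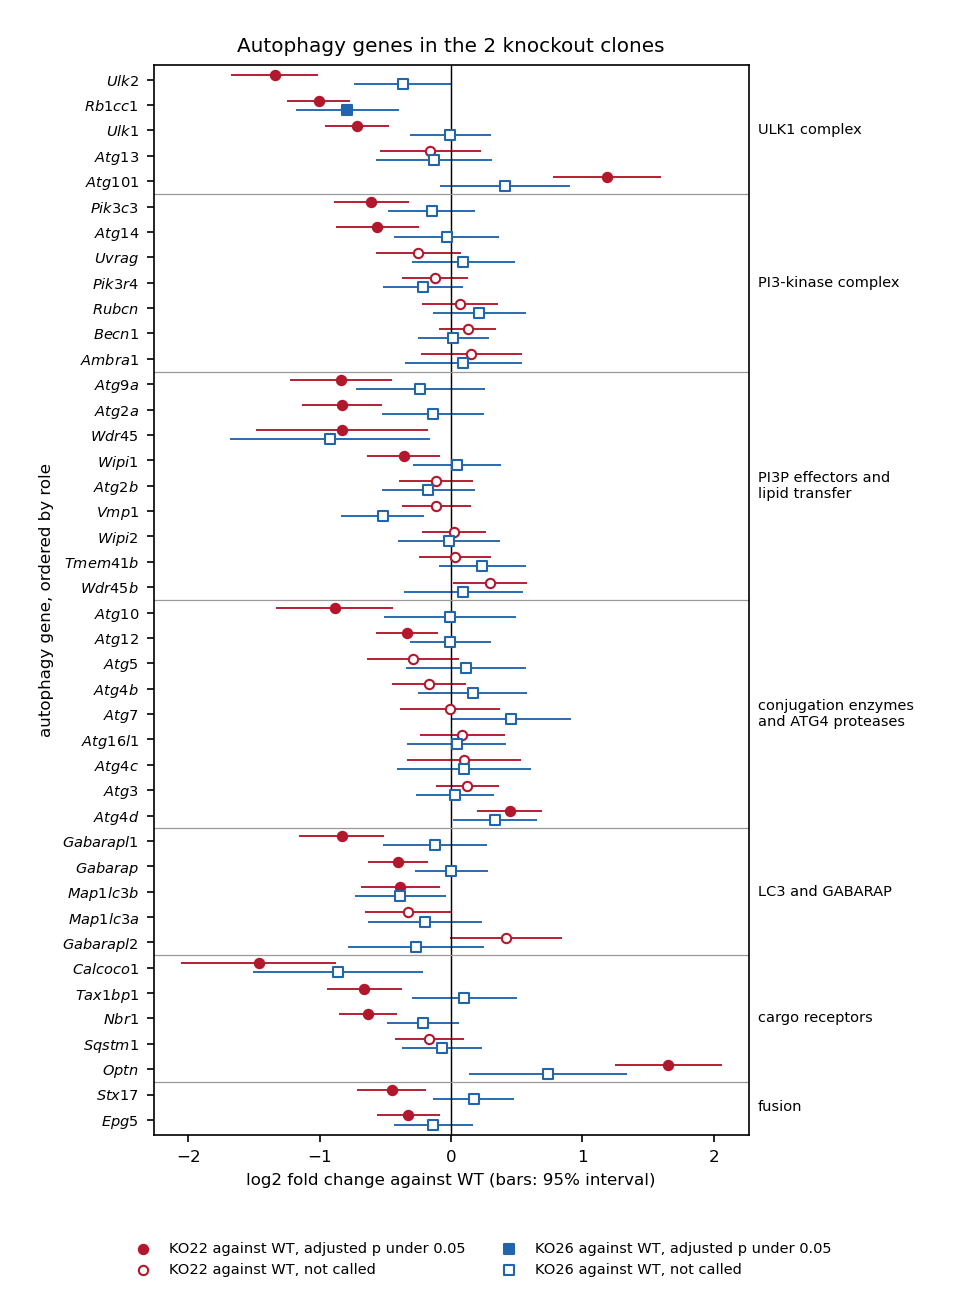
Log2 fold change against WT of the 42 genes by role in KO22 (circles) and KO26 (squares), with 95% intervals; filled symbols have an adjusted p under 0.05 and both comparisons share the 4 WT libraries. In KO22 19 genes are called lower and 3 higher, and in KO26 *Rb1cc1* alone is called.

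Because a call in one line and not in the other does not show a difference, KO22 was set against KO26 directly in the fit over all 9 mRPE libraries. Of the 42 genes, 10 were lower and 2 higher in KO22 than in KO26, against 18.1% and 16.3% of all genes, and the median was -0.19 over the 42 and 0.00 over all genes. Past both limits there were 0 of the 42, against 10.7% of all genes lower and 7.56% higher, and the libraries of 16 genes were lower and of 3 higher in KO22 without overlap, against 24.6% and 23.4%. All 12 were among the 22 genes called in KO22 against WT, and for the other 10 of those 22 the difference between the lines did not pass the test. *Ulk2* was lower in KO22 by 0.98 ± 0.17 (adjusted p 0.00176), *Ulk1* by 0.71 ± 0.14 (adjusted p 0.00356), *Stx17* by 0.62 ± 0.15 (adjusted p 0.00805) and *Tax1bp1* by 0.77 ± 0.19 (adjusted p 0.00998). *Atg101* was higher by 0.78 ± 0.24 (adjusted p 0.0263) and *Optn* by 0.94 ± 0.28 (adjusted p 0.0269). For *Rb1cc1*, lower than WT in both lines, the difference between the lines was -0.20 with a 95% interval of -0.59 to 0.20, and for *Map1lc3b* it was 0.00 with an interval of -0.35 to 0.36; without KO26 library 1 *Rb1cc1* was lower in KO22 than in the other KO26 library by 0.51 (adjusted p 0.0385). For *Calcoco1* the difference was -0.58 ± 0.29 (adjusted p 0.152), and -1.15 without KO22 library 1 (adjusted p 7.58e-05). All 12 kept their sign within both batches, read in the same libraries that gave the calls, so this is no separate check. Less the chromosome medians of this comparison, *Tax1bp1* had a difference of -0.24, *Atg2a* of -0.21, *Gabarapl1* of -0.16 and *Atg101* of 0.38. Calls for 10 of the 12, all but *Ulk1* and *Ulk2*, were lost when 1 of the 9 libraries was left out, most often KO26 library 1 (7 of the 12, among them *Optn* at 0.51, adjusted p 0.21, and *Tax1bp1* at -0.47, adjusted p 0.0952).

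Other autophagy genes outside the 42 were read from lists. Of 33 further genes of the pathway 13 fell and 7 rose in KO22, against 26.1% and 26.9% of all genes, with a median of -0.07. *Trp53inp1*, a p53 target that binds LC3, was at 147 ± 24.9 CPM in WT (SD, n = 4) and 13.3 ± 1.01 CPM in KO22 (n = 3), and fell by 3.44 ± 0.15 on the log2 scale (adjusted p 6.18e-07). *Dapk1*, a kinase that acts on beclin 1, fell from 34.9 ± 8.39 to 0.599 ± 0.629 CPM, by 5.67 ± 0.39 (adjusted p 4.6e-06). *Zfyve1*, a PI3P binding protein of the site where autophagosomes form, fell from 40.9 ± 8.08 to 11.9 ± 1.04 CPM, by 1.76 ± 0.18 (adjusted p 3.89e-05). In KO26 none of the 33 passed the test (edgeR). At an unadjusted p under 0.05 there were 5 of the 33, against 4163 of all 20737 genes. Against KO26 *Trp53inp1* was lower in KO22 by 2.94 ± 0.19 and *Dapk1* by 5.35 ± 0.43.

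Of 9 receptors for the autophagy of the endoplasmic reticulum, ferritin or glycogen, a list that includes *Calcoco1*, 5 fell and 2 rose in KO22, against the same 26.1% and 26.9%. The ER receptors *Atl3* (370 ± 27.6 CPM in WT, 149 ± 18.3 in KO22, -1.31 ± 0.13, adjusted p 3.36e-05) and *Retreg1* (-1.41 ± 0.24, adjusted p 0.00102) fell, and the glycogen receptor *Stbd1* rose by 1.73 ± 0.25 (adjusted p 0.000325). *Stbd1* also rose in KO26, by 2.16 ± 0.38 (adjusted p 0.0171), from 1.89 ± 0.949 CPM in WT to 8.96 ± 3.68 CPM (SD, n = 2). Of 7 reported TFEB targets of the pathway 2 rose and 2 fell, and of 11 reported ATF4 or CHOP targets 5 fell and none rose in KO22; all 11 of the latter and *Sqstm1*, *Map1lc3b*, *Uvrag* and *Wipi1* of the former are among the 42 genes, so these lists are not separate evidence. In tissue none of the genes on the lists beyond the 42 passed the test (edgeR). The unadjusted p was under 0.05 for 2 of the 33, 3 of the 9 and 1 of the 13 regulators, against 2068 of all 24926 genes.

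Of 13 regulators of the pathway 8 rose and 3 fell in KO22, against 26.9% and 26.1% of all genes, with a median of 0.53 (0.33 less the chromosome medians). In KO26 1 of them rose and 0 fell, against 2.36% and 1.13%, with a median of 0.06. *Atf4*, the transcription factor of the integrated stress response, was at 84.8 ± 30.8 CPM in WT, at 221 ± 3.33 CPM in KO22 and at 171 ± 70.0 CPM in KO26, and rose by 1.40 ± 0.17 in KO22 (adjusted p 0.000127) and by 0.86 ± 0.20 in KO26 (adjusted p 0.0444). *Nfe2l2*, the antioxidant factor that p62 can release from its inhibitor, rose by 1.06 ± 0.13 in KO22 (adjusted p 0.000136) and had a value of 0.04 ± 0.15 in KO26. *Mtor*, the kinase that holds back ULK1, rose by 0.62 ± 0.11 (adjusted p 0.00104), and the lysosomal factors *Tfeb* and *Tfe3* rose by 0.74 ± 0.21 (adjusted p 0.0133) and 0.53 ± 0.13 (adjusted p 0.00653). These are transcript levels, and kinase activity or nuclear entry was not measured here. *Mitf*, also on the list, was called higher in KO22, at a mean of 14.3 CPM against 5.50 CPM in WT. In KO26 it was not called, at 1.62 to 2.08 CPM against 3.02 to 6.77 CPM in WT. *Nfe2l2*, *Mtor*, *Tfeb*, *Tfe3* and *Mitf* were named after their values were seen. All regulators named here rose in KO22. The 3 that fell are not named, and the lowest value on the list was -0.69.

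In RPE/choroid tissue none of the 42 genes passed the test between KO and WT. With edgeR's quasi-likelihood test the smallest adjusted p was 0.635, for *Wdr45*, while 0.193% of 24926 genes fell (0.189% past both limits) and 0% rose. None of the 42 had an unadjusted p under 0.05, against 2068 of all genes. DESeq2's own test called none of the 42, against 1.24% of all genes lower and 0.589% higher. *Wdr45* was at 2.34, 2.81 and 2.86 CPM in WT and at 3.07, 3.33 and 4.84 CPM in KO (0.48 ± 0.22), without overlap. *Atg7* was at 7.22, 7.48 and 7.68 CPM in WT and at 6.77, 6.64 and 6.00 CPM in KO (-0.20 ± 0.12, adjusted p 0.734), also without overlap. These were the 2 genes of 42 whose libraries did not overlap, against 6.71% of all genes higher and 7.89% lower. The median of the 42 genes was 0.01, and the 95% intervals reached from -0.96 for *Atg2a* to 1.00 for *Wdr45*.

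Some genes with calls in culture had narrow intervals in tissue, which hold for the bulk RNA and not for RPE cells alone. Fibroblast markers summed to 888.7 to 1867.5 CPM in WT tissue and 778 to 1804 CPM in KO. Melanocyte markers summed to 682 to 1020 CPM in WT tissue and 968 to 998 CPM in KO. *Nbr1* had a tissue value of 0.08 ± 0.11 with an interval of -0.18 to 0.33, *Tax1bp1* 0.10 ± 0.13 with -0.19 to 0.40 and *Stx17* -0.03 ± 0.13 with -0.33 to 0.27. *Calcoco1* was at 12.0, 13.2 and 13.4 CPM in WT and at 12.2, 12.1 and 14.7 CPM in KO (0.01 ± 0.13). Wider were *Ulk1*, at 10.1, 10.2 and 11.6 CPM in WT and at 11.0, 11.6 and 6.90 CPM in KO (-0.11 ± 0.21, -0.59 to 0.38), and *Rb1cc1*, at 62.9, 78.4 and 73.0 CPM in WT and at 67.7, 73.0 and 117 CPM in KO (0.27 ± 0.23, -0.27 to 0.80), where KO library 3 stood apart. *Optn* had -0.22 ± 0.16 and *Ulk2* 0.20 ± 0.17, with adjusted p of 0.78 and 0.816. *Map1lc3b* was at 30.9, 33.3 and 27.9 CPM in WT and 32.6, 31.0 and 37.4 CPM in KO, and *Sqstm1* at 25.9, 23.2 and 18.9 CPM and 23.9, 23.4 and 16.4 CPM, each with overlap.

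RPE marker RNA in this tissue differed between the groups. The 13 RPE markers summed to 1756 to 2688 CPM in WT and 402 to 570 CPM in KO, 7 of the 13 without overlap, and 4 fell (*Rpe65*, *Lrat*, *Rgr* and *Slc16a8*). *Rpe65*, the isomerase of the visual cycle, fell from a mean of 257 to 3.86 CPM. The rest did not pass the test. Among them *Ttr* (-3.01 ± 0.45), *Rlbp1* (-2.07 ± 0.34), *Mitf* (-0.82 ± 0.13) and *Otx2* (-0.67 ± 0.30) had the lowest values. The others were *Tyr* (0.31 ± 0.20), *Pmel* (-0.15 ± 0.19), *Krt8* (-0.04 ± 0.38), *Krt18* (-0.23 ± 0.35) and *Best1* (-0.25 ± 0.38). The 6 endothelial markers summed to 73.8 to 154 CPM in WT and 43.3 to 69.0 CPM in KO, without overlap in the sum. In bulk tissue fewer RPE cells and less RNA of these genes per cell cannot be told apart. The part of these differences in the tissue values of the autophagy genes was not tested. Without KO library 3, the one with 84.2% mitochondrial counts, and without each other library in turn, none of the 42 genes was called.

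**Figure D5:**
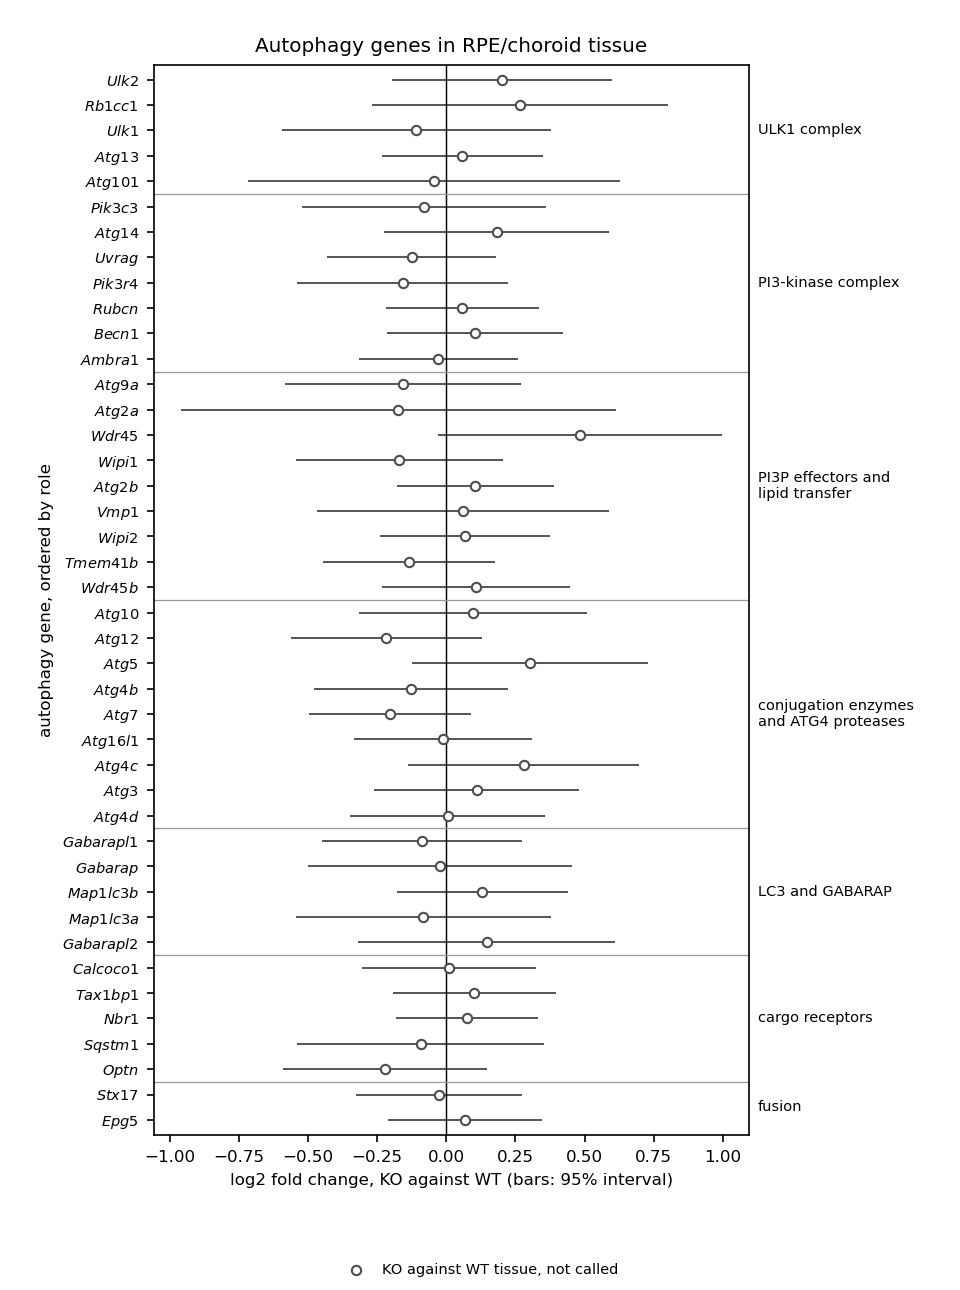
Log2 fold change of the 42 genes between KO and WT RPE/choroid (3 libraries each) with 95% intervals, by role; open symbols have an adjusted p of 0.05 or more. All 42 are open, and their values lie between -0.22 and 0.48.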

How the data were processed

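Per the labels and the study's methods, polyadenylated RNA was made into stranded libraries (the labels name an NEB kit, the methods a TruSeq kit), and the submitters' processing notes name Trim Galore 0.6.7, STAR, DESeq2 1.42.0 and build mm39. The deposited values are raw gene counts, which for mRPE the authors made in STAR's gene count mode, which takes uniquely placed reads, with low genes left out before deposit. The strand setting, and the counting of the tissue libraries, are not given in the sources used here. The authors' normalized tables were not used. The 197 rows of the mRPE table and 249 rows of the RPE/choroid table without a gene symbol were kept under their gene ID.

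The filter kept a gene that reached 5 counts in 3 or more libraries. The test was the quasi-likelihood test of edgeR 4.0.16 (TMM scaling, R 4.3.3, limma 3.58.1), with the batch as a term in mRPE, and p-values were adjusted by the Benjamini-Hochberg method over all genes. A call is an adjusted p under 0.05, and the stricter call adds a log2 change beyond 1.2, the limits of the study. KO22 against WT was fitted on 7 libraries and both other mRPE comparisons on 9. CPM are counts scaled to TMM library sizes, mitochondrial counts included, and within-batch ratios used a pseudocount of 0.5 CPM. Intervals are 95%. Levels per kilobase and promoters used the canonical GENCODE vM39 transcript on GRCm39, and figures were drawn with Python 3.11.15 and matplotlib 3.10.9. The scripts were tested on simulated counts.

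Values are given by library for genes past both limits in any comparison, for the 5 of lowest adjusted p among those higher and among those lower in KO22, for the leading genes of the other comparisons (3 a direction if called, otherwise 1) and for all LC3, GABARAP and cargo receptor genes, and outside the 42 for at most 8 genes past both limits in KO22. The members, lists and rules were chosen with earlier results of these data known. Replicate numbers only name a library. Alternatives were DESeq2's scaling and its test (DESeq2 1.42.0), no filter and filterByExpr, no batch term, other sets of libraries in the fit, mitochondrial genes left out in tissue, changes less the chromosome's median, and each library left out in turn.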

Additional observations from a re-analysis of the deposited data

Results flagged for a closer look

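In WT mRPE library 1, the only WT library of batch 8995, 3 of the 42 autophagy genes stood apart from the other 3 WT libraries by Dixon's test. *Gabarap* was at 129 CPM there against 69.0 to 72.4 CPM in the others, *Vmp1* at 653 CPM against 582 to 588 CPM, and *Uvrag* at 22.8 CPM against 34.4 to 36.6 CPM. Chance alone marks about 1 group in 20, and 42 were tested.

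For 12 of the 42 genes the KO22 and KO26 lines differed in the fit over 9 libraries (edgeR's quasi-likelihood test, adjusted p under 0.05), and so did their changes against the shared WT libraries. The log2 difference, KO22 minus KO26, was -0.98 for *Ulk2*, -0.87 for *Atg10*, -0.77 for *Tax1bp1*, -0.71 for *Ulk1*, -0.70 for *Atg2a* and -0.69 for *Gabarapl1*. It was -0.62 for *Stx17*, -0.46 for *Pik3c3*, -0.42 for *Nbr1*, -0.41 for *Gabarap*, 0.78 for *Atg101* and 0.94 for *Optn*. With 1 line on each side, this compares these edited lines.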

How the results depend on the processing

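Of 268 count and median values recomputed under the alternatives, 234 stayed within 1.5 times the reported count or within the spread, and 34 moved; in tissue none of the 42 genes was called under any alternative. Among the genes named by rule, 1 value turned, *Gabarapl2* in KO22, from 0.42 to -0.18 less the median of its chromosome, and calls lost or gained with 1 library left out stand beside each result. In KO22 against WT, leaving out 1 library gave 1 to 2 genes past both limits in each direction and a median of -0.33 to -0.24, and without the batch term *Wdr45*, *Atg12*, *Map1lc3b*, *Gabarap* and *Epg5* lost their call.

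In KO26 against WT, the 1 lower gene became 2 with DESeq2's own test, 0 without the batch term and 6 in a fit of the WT and KO26 libraries alone, and 0 to 5 with 1 library left out. Leaving out 1 library gave 0 to 1 higher, 0 to 1 lower past both limits and a median of -0.12 to 0.034, and the median less that of each chromosome was -0.075. In KO22 against KO26, the 2 higher genes became 4 with DESeq2's own test and 0 without the batch term. Leaving out 1 library gave 0 to 4 higher, 6 to 12 lower, 0 to 1 higher past both limits and a median of -0.25 to -0.15. The cause of these moves was not tested.

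Over all genes, KO26 had 490 higher and 235 lower, but 975 and 625 with DESeq2, 1742 and 1404 in the fit of WT and KO26 alone and 174 and 81 without the batch term. Tissue had 0 and 48, but 144 and 303 with DESeq2. The lowest of the 42 genes in tissue, *Atg101*, rested on 50 to 114 counts per library. No paired analysis was possible because the labels give the groups no shared replicate numbers.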
